A study of Mus musculus with 18 samples.

Results

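The BCL2 family genes examined here were Bcl2, Bcl2l1, Mcl1, Bcl2a1b and Bcl2a1d on the survival side and Bax, Bid, Bcl2l11, Bbc3 and Pmaip1 on the death side. They were taken by gene symbol from the deposited table, where these 10 genes were 10 of 36172 rows, by a list of names that was drawn up with earlier results of these data known but holds no threshold on a measured value. All 10 passed the filter on low counts and were among the 14803 genes tested, although the Bcl2a1b and Bcl2a1d rows did not pass it in Input PBS.

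The libraries came from brain of Cx3cr1-cre/ERT2+; NuTRAP+ mice about 3 months old. After tamoxifen, Cre under the Cx3cr1 promoter switches on a tag on ribosomes in Cx3cr1-expressing cells, mainly microglia, and every animal of both treatments carried these alleles and had received tamoxifen 3 to 4 weeks earlier. The mice were then injected intraperitoneally with 5 mg/kg lipopolysaccharide (LPS), a bacterial cell wall component that drives acute inflammation, or with PBS as vehicle, and brains were taken 24 h later. From each brain homogenate 1 RNA library was made before affinity purification (input, RNA of all brain cells) and 1 after pull-down of the tagged ribosomes (positive fraction, ribosome-bound RNA). The 4 groups were Input PBS (animals 268, 272, 273 and 506), Positive PBS (the same 4 animals), Input LPS (animals 266, 267, 270 and 507) and Positive LPS (animals 266, 267, 270, 271 and 507). Animals 267, 272 and 273 were male and the other 6 were female. Values are listed in this animal order throughout. Cx3cr1 is also active in other macrophages of the brain borders and in blood monocytes, although the study set the weeks between tamoxifen and tissue collection so that short-lived tagged monocytes would be replaced, and the pull-down is not a sort of a pure cell type.

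BCL2 family proteins decide whether mitochondria release the factors that switch on the caspases. Survival members (BCL2, BCL-XL from Bcl2l1, MCL1 and the A1 proteins from the Bcl2a1 genes) hold the pore-forming members BAX and BAK in check, and the BH3-only members BIM (Bcl2l11), PUMA (Bbc3), NOXA (Pmaip1) and BID relieve that block when a cell is stressed. In macrophages, MCL1 is a short-lived survival protein, and the A1 genes are well known targets of NF-kB.

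The Bcl2a1 genes need their sequences beside their values, because they are near-copies that share reads. The mouse genome has Bcl2a1a, Bcl2a1b and Bcl2a1d close together on chromosome 9, with another row, Bcl2a1c, further along it. The first 240 coding bases of the 3 close paralogs are shown, from the start codon, in GENCODE transcripts on GRCm38, at chr9:88957051-88957290 (plus strand, Bcl2a1a), chr9:89199360-89199599 (plus strand, Bcl2a1b) and chr9:88731480-88731719 (minus strand, Bcl2a1d), all in the first coding exon. The 7 positions at which the 3 differ are in capitals.
Bcl2a1a: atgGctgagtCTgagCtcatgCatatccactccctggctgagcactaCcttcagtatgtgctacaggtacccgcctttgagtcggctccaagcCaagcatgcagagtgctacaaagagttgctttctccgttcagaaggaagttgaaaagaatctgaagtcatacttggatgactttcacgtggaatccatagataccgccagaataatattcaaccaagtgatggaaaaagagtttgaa
Bcl2a1b: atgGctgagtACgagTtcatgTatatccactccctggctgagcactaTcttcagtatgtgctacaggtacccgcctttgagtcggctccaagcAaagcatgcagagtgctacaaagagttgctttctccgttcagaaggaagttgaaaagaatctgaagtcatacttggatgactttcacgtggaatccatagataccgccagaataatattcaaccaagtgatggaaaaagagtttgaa
Bcl2a1d: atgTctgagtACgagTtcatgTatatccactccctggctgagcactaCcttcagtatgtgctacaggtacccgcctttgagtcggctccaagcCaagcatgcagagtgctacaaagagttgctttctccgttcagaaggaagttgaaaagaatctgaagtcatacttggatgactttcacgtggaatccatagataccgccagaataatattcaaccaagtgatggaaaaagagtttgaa
Over the whole coding sequence of 516 bases, Bcl2a1b and Bcl2a1d differed at 6 bases (98.8% identical), Bcl2a1a and Bcl2a1d at 7 (98.6%) and Bcl2a1a and Bcl2a1b at 11 (97.9%). Of the 50-base windows of each transcript, 42.4% of those of Bcl2a1b and 20.5% of those of Bcl2a1d occurred in no other Bcl2a1 transcript, as did 31.0% of those of Bcl2a1a and 89.6% of those of Bcl2a1c. How the authors' counting divided reads that fit several of these genes is not given in the sources used here, so each of the rows is uncertain as a count of 1 gene, and their sum is given beside them.

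RefSeq promoter windows (250 bases before to 50 after the start, GRCm38.p6) existed for 9 of the 10 genes, in 14 windows. The letters GAGGAAG, the core of sites for the myeloid factor PU.1, were searched on both strands and were present in 13.6% of all 32851 promoter windows. They occurred in windows of Bcl2a1b, Bcl2a1d and Bcl2 among the 10 genes, and in Bcl2a1a. The stretch of 100 bases that holds them upstream of the start is shown with these letters in capitals, at chr9:88956790-88956889 (plus strand, Bcl2a1a), chr9:89199099-89199198 (plus strand, Bcl2a1b) and chr9:88731875-88731974 (minus strand, Bcl2a1d).
Bcl2a1a: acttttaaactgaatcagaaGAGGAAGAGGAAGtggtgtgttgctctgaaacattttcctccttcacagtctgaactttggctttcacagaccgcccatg
Bcl2a1b: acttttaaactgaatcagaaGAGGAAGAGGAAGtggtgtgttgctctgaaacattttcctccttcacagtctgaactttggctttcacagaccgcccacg
Bcl2a1d: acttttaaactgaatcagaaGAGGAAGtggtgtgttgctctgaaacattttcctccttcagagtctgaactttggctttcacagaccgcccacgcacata
Bcl2a1a and Bcl2a1b held 2 copies that overlap by their last and first G, and Bcl2a1d held 1. The NF-kB consensus, present in 8.46% of all windows, matched 1 of 3 windows of Bcl2l1 and 1 of 3 of Bbc3 and no window of the other genes, the A1 genes included. These are matches of letters in short windows and say nothing of whether a factor binds there.

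The 17 libraries used held 22968939 to 35123345 estimated counts each. The input library of animal 271 held 1252 in all and was left out, so that animal has a positive fraction only. Size factors ran from 0.766 to 1.32, and all values below are counts divided by them (normalised counts). The 8 microglial marker genes were all higher in the positive fraction than in input, with a median log2 difference of 4.22 in PBS animals and 4.03 in LPS animals, whereas the 5 oligodendrocyte markers were all lower (medians -2.30 and -1.81). Transcripts of other cell types remained in it. Of the 5 neuron markers 0 were called between the fractions in PBS or LPS animals (medians 0.02 and -0.18), and their summed counts were 120714 to 150440 in Positive PBS and 135229 to 146230 in Input PBS. The 5 astrocyte markers had medians of -0.07 and -0.28, with 1 higher and 2 lower in the positive fraction in each treatment, and of the 6 endothelial markers 6 were higher there in PBS animals and 4 in LPS animals (medians 1.45 and 0.72). The summed microglial markers spanned 182258 to 224696 normalised counts in Positive PBS and 152832 to 211764 in Positive LPS, and these ranges overlapped. In such pooled RNA, fewer cells of a type and less RNA per cell cannot be told apart.

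To compare genes with each other, normalised counts were divided by the exon length of each gene. The length was the union of exons over the basic GENCODE transcripts, whereas the counts came from RefSeq models, and the A1 rows share reads. The order is therefore approximate. Per kilobase, Mcl1 was highest in Positive PBS (1491 ± 84.9, SD, n = 4), before Bax (1278 ± 143) and Bcl2l1 (1185 ± 80.7), and neighbours in this order overlapped. The next level was Bcl2a1b at 417 ± 68.4, apart from both its neighbours in the order, followed by Bid (245 ± 14.0), Bcl2a1d (194 ± 34.3) and Bbc3 (162 ± 17.1), each overlapping the next. Bcl2 (94.6 ± 2.86), Pmaip1 (78.9 ± 4.60) and Bcl2l11 (55.1 ± 8.84) were lowest, without overlap between them. In Positive LPS, Mcl1 (2513 ± 259, n = 5), Bax (2368 ± 355), Bcl2a1b (2241 ± 399), Bcl2a1d (1556 ± 388) and Bcl2l1 (1470 ± 169) formed a chain in which each gene overlapped the next, and the highest library of the other 5 genes was one of Bid at 334 per kilobase. In Input PBS the A1 rows were at the bottom of the order, at 28.3 ± 11.8 for Bcl2a1b, overlapping Bcl2l11 (29.4 ± 3.01), and 13.2 ± 3.34 for Bcl2a1d, while Bax (1163 ± 77.1), Bcl2l1 (1006 ± 40.5) and Mcl1 (817 ± 33.7) led without overlap.

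**Figure D1:**
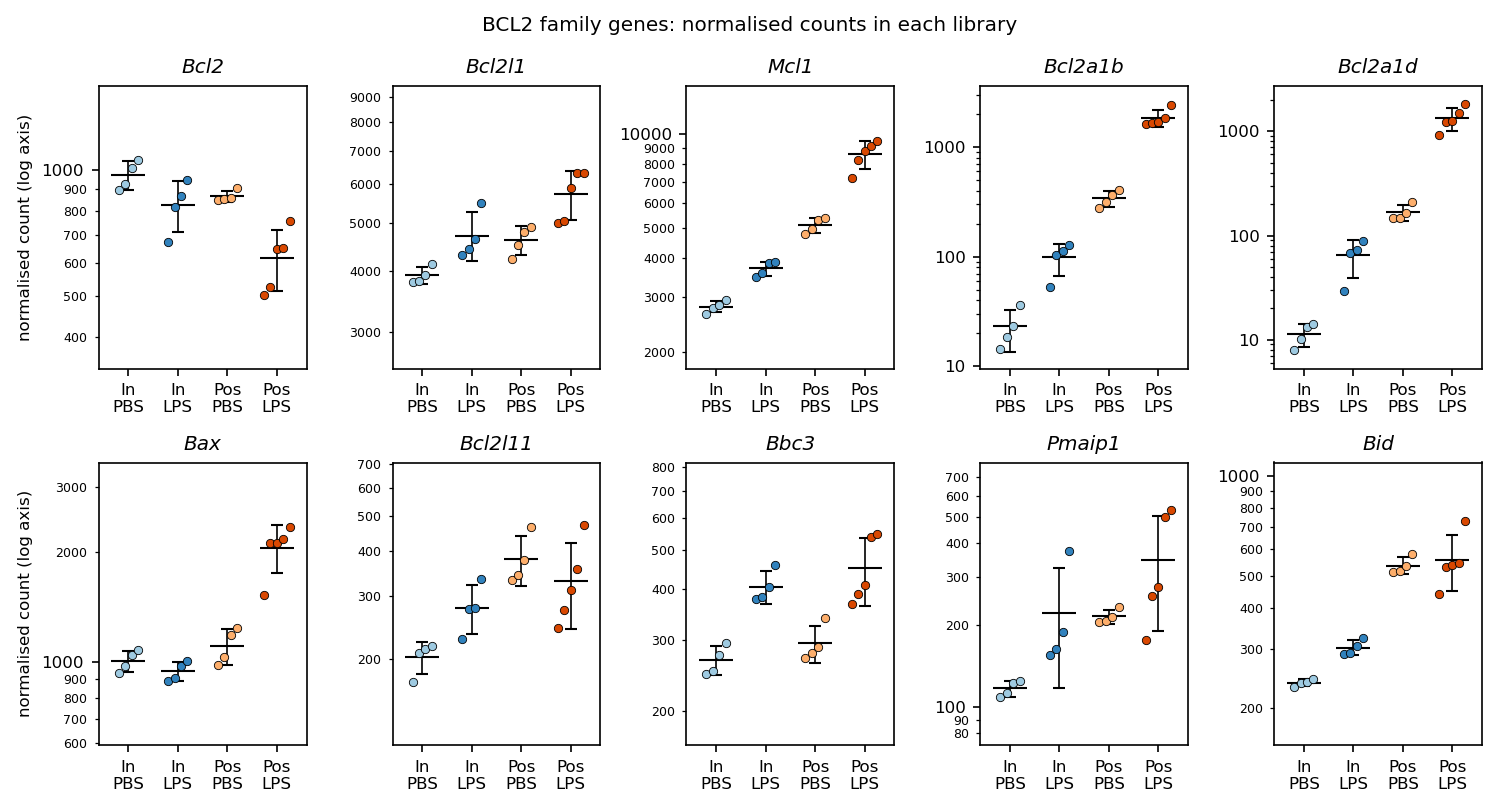
Normalised counts (log axis) of the 10 genes in Input PBS (In PBS, 4 libraries), Input LPS (In LPS, 4), Positive PBS (Pos PBS, 4) and Positive LPS (Pos LPS, 5). Points are libraries sorted by value, and bars are the mean ± SD. Bcl2a1b and Bcl2a1d were highest in Positive LPS in every library, and Bax stood apart only there.

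The first question was how LPS changed these transcripts in the positive fraction, which is not RNA of the tagged cells alone, compared with input. In the positive fraction, 6 of the 10 genes were called, which is an edgeR quasi-likelihood adjusted p under 0.05 with a log2 difference of more than 0.32 in either direction; 33.8% of all genes tested met the same rule. Here and below, a log2 difference is followed by ± its standard error (SE), and a level by ± its SD. Bcl2a1b, Bcl2a1d, Mcl1, Bax and Bbc3 rose (5 of 10, against 19.0% of all genes) and Bcl2 fell (1 of 10, against 14.9%). The median log2 difference was 0.65 over the 10 genes and 0.01 over all genes tested, and the LPS and PBS groups did not overlap for 7 of the 10, compared with 30.1% of all genes. In input, Bcl2a1b, Bcl2a1d, Mcl1 and Bbc3 rose (4 of 10, with 12.4% of all genes called and 7.16% raised) and 0 of the 10 were called lower, against 5.26% of all genes. By edgeR 0 of the 10 were lower in input at an unadjusted p under 0.05, and DESeq2 called 0 lower as well. The median in input was 0.43 against 0.00 for all genes, and the groups did not overlap for 8 of the 10, compared with 24.2% of all genes.

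**Figure D2:**
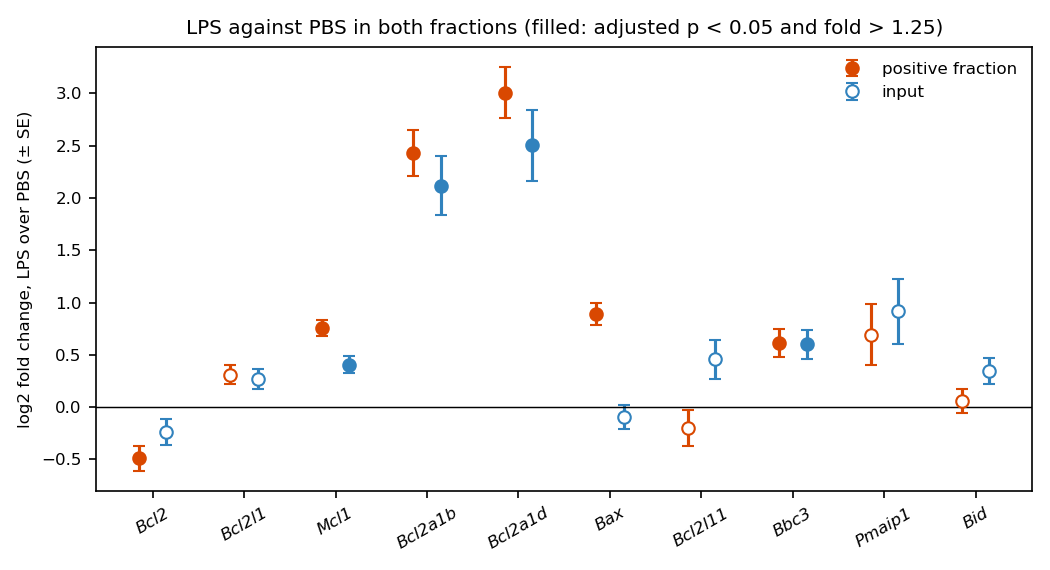
Log2 fold change of LPS over PBS (y axis, error bars ± SE) for each gene in the positive fraction and in input, with filled points for genes called. Bax is the gene whose points lie farthest apart relative to their errors, with a positive fraction value of 0.89 and an input value of -0.09.

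The A1 rows showed the largest differences. In the positive fraction, Bcl2a1b (chr9:89199273-89207838, plus strand) had 313, 279, 366 and 405 normalised counts in PBS animals and 1822, 1656, 1610.5, 2397 and 1671 in LPS animals. Bcl2a1d (chr9:88723288-88731850, minus strand, with Gm10634 overlapping it on the other strand) had 148, 147, 165 and 211 in PBS animals and 1491, 1232, 914, 1816 and 1262 in LPS animals. Every LPS library was above every PBS library for both rows, and animal 271 was highest for both. The log2 increase was 2.43 ± 0.22 (adjusted p = 1.39e-07), a 5.38-fold rise, for Bcl2a1b and 3.00 ± 0.24 (adjusted p = 3.56e-08), an 8.03-fold rise, for Bcl2a1d.

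The same rows were scarce in input. Bcl2a1b had 18.5, 36.5, 23.1 and 14.3 normalised counts in PBS animals and 128, 112, 52.3 and 103 in LPS animals. Bcl2a1d had 13.2, 10.1, 14.2 and 7.94 in PBS animals and 89.3, 72.7, 29.3 and 67.5 in LPS animals. Here too no LPS library reached down to a PBS library, and animal 270 was the lowest LPS animal for both. The increases were 2.12 ± 0.28 (adjusted p = 4.77e-05) for Bcl2a1b and 2.50 ± 0.34 (adjusted p = 5.53e-05) for Bcl2a1d, and neither differed detectably between fractions (difference of the log2 effects 0.31 ± 0.36, adjusted p = 0.705, and 0.50 ± 0.44, adjusted p = 0.600).

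With the 4 Bcl2a1 rows summed into 1, the LPS effect was 2.74 ± 0.21 (adjusted p = 1.98e-08) in the positive fraction and 2.27 ± 0.26 (adjusted p = 8.86e-06) in input. The sum was 615 ± 98.1 (SD, n = 4) in Positive PBS and 4113 ± 844 (n = 5) in Positive LPS. The rows did not keep the same proportions. Bcl2a1b made up 55.4 ± 2.69% of the sum in Positive PBS and 44.8 ± 3.33% in Positive LPS, ranges of 52.3 to 58.2% and 42.6 to 50.7% that did not overlap, whereas Bcl2a1d went from 27.3 ± 0.85% to 32.4 ± 2.24% and Bcl2a1a from 17.1 ± 1.94% to 22.6 ± 1.37%. In input, with few counts, the share of Bcl2a1b ranged from 41.5 to 68.6% in PBS animals and from 47.5 to 52.3% in LPS animals, and these overlapped. Bcl2a1c was listed at 0 in all 4 Input PBS libraries, where 0 allows up to 3 counts per library, and reached 14.0 at most in Positive LPS.

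A1 transcripts are also abundant in neutrophils, so the neutrophil markers are given here. Ly6g, a defining marker, was at 0 in all 17 libraries. Of the 10 markers, 6 were tested, and 4 of these rose and 1 fell with LPS in the positive fraction while 4 rose in input, with medians of 2.02 and 1.83 on the log2 scale. S100a8 ranged from 5.71 to 24.2 normalised counts in Positive PBS and from 167 to 599 in Positive LPS, and from 57.2 to 113 in Input PBS and from 114 to 426 in Input LPS. The summed list ranged from 1858 to 2187 in Positive PBS and from 1081 to 2076 in Positive LPS, and from 667 to 1043 in Input PBS and from 864 to 1817 in Input LPS. In Positive PBS the highest counts of S100a8 (24.2), S100a9 (44.6), Retnlg (7.64), Ngp (46.8) and Camp (4.36) were small beside this sum. The sum there came mainly from other listed genes, and it did not rise with LPS as S100a8 did. Of the 6 tested markers, 4 were lower and 1 higher in the positive fraction than in input in PBS animals. In LPS animals 3 were lower and 1 higher. Animal 270 had the lowest neutrophil sum of the LPS animals in both fractions (864 and 1081) as well as the lowest Bcl2a1b values. Animal 271 had the next lowest neutrophil sum in Positive LPS (1528) and the highest Bcl2a1b value there (2397). Since the sum in the positive fraction did not rise with LPS as S100a8 did, these sums by animal are not a measure of neutrophils there. The part of such cells in the A1 result was not tested.

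Mcl1, the short-lived survival gene, rose in both fractions. It lies at chr3:95658721-95663178 on the plus strand. In the positive fraction it had 5283, 4754, 4964 and 5385 normalised counts in PBS animals and 7236, 9490.4, 8792, 9170.0 and 8255 in LPS animals. In input it had 2765, 2923, 2834 and 2651 in PBS animals and 3586, 3869.9, 3857 and 3485 in LPS animals. The LPS and PBS animals were apart in both fractions. The log2 increase was 0.75 ± 0.08 (adjusted p = 6.23e-07, 1.69-fold) in the positive fraction and 0.41 ± 0.08 (adjusted p = 0.00205, 1.32-fold) in input. The difference between the 2 effects, 0.35 ± 0.11 (adjusted p = 0.0710), was not called, but it was called with DESeq2 (0.35, adjusted p = 0.0347), with TMM scaling (0.37, adjusted p = 0.0451) and without the positive library of animal 266 (0.41, adjusted p = 0.0136), the lowest of the LPS animals.

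Bcl2l1, which encodes BCL-XL, lay just under the fold needed for a call. It spans chr2:152780668-152831682 on the minus strand. Its positive fraction values were 4499.7, 4214, 4797 and 4912 in PBS animals and 4991, 5895, 6326, 6309 and 5054 in LPS animals, and its input values were 3800.3, 3925, 4129 and 3792 against 4304, 4627, 5492 and 4425. The LPS animals were above the PBS animals in both fractions, with animal 270 highest in each. The log2 differences were 0.31 ± 0.09 (adjusted p = 0.00998, 1.24-fold) and 0.27 ± 0.09 (adjusted p = 0.0667). The positive fraction value passed the cut with TMM scaling (0.33) and when positive libraries of LPS animals 266 (0.36) or 507 (0.36) or of PBS animals 273 (0.33) or 506 (0.34) were left out.

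Bcl2, the founding survival gene, went the other way. It spans chr1:106538179-106714290 on the minus strand, with D630008O14Rik overlapping it on the other strand. Positive fraction libraries had 849, 859, 851 and 905 normalised counts in PBS animals and 653, 647, 526, 504 and 755 in LPS animals, and every LPS animal was below every PBS animal. It fell by 0.49 on the log2 scale ± 0.12 (adjusted p = 0.00279). In input the values were 1013, 926, 895 and 1057 in PBS animals and 947, 816, 672 and 865 in LPS animals, which overlapped (log2 difference -0.24 ± 0.12, adjusted p = 0.220). The difference between the 2 effects was not detectable (-0.25 ± 0.17, adjusted p = 0.459). The neuron markers were also lower with LPS in the positive fraction, where 3 of 5 fell (median -0.40), with sums of 120714 to 150440 in PBS animals and 92534 to 132420 in LPS animals that overlapped and no marker at 0, and their part in the fall of Bcl2 was not tested.

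Bax, a pore-forming effector, was the 1 gene of the 10 whose LPS effect was called as different between the fractions in the main fit. It lies at chr7:45461695-45466898 on the minus strand. Its positive fraction libraries had 1029, 979, 1239 and 1186 normalised counts in PBS animals and 2338, 2120.1, 1528, 2169 and 2111 in LPS animals. In input it had 974, 1047, 1079 and 933 in PBS animals and 890.4, 1009.8, 977 and 902 in LPS animals. The 5 LPS animals were above the 4 PBS animals in the positive fraction, animal 270 being the lowest, whereas the 2 groups overlapped in input. Bax rose 1.85-fold in the positive fraction (log2 0.89 ± 0.11, adjusted p = 4.03e-06) and its log2 difference in input was -0.09 ± 0.11 (adjusted p = 0.631). The difference between these effects was 0.98 ± 0.15 (adjusted p = 0.000717), and 6.88% of all genes were called for this difference (5.46% upwards and 1.42% downwards). Under alternatives it was called for Bcl2l11 too (2 of 29, the animal as a block among them) and for Mcl1 (4 of 29). Counts over all genes for this difference depended on the pairing: 808 genes were called upwards and 210 downwards, and with the animal as a block 1318 and 597. The share called upwards was 79.4%, or 67.7% when library totals alone set the scale.

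Bak1, which encodes the other pore-forming effector BAK and was not among the 10 genes, had a similar pattern. It had 790 ± 84.9 normalised counts (SD, n = 4) in Positive PBS and 1775 ± 144 (n = 5) in Positive LPS, a log2 increase of 1.17 ± 0.09 (adjusted p = 1.72e-08). In input it had 436 ± 34.6 and 550 ± 12.7 (log2 0.33 ± 0.09, adjusted p = 0.0225), and the effect was larger in the positive fraction by 0.84 ± 0.13 (adjusted p = 0.000606). The call in input was lost without the input library of animal 270 (0.32), 272 (0.30) or 506 (0.31).

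The BH3-only genes did not move together. Bbc3, which encodes PUMA (chr7:16309583-16318334, plus strand), rose in both fractions. Its positive fraction values were 339, 278, 271 and 288 normalised counts in PBS animals and 388, 409, 538, 547 and 366 in LPS animals. Its input values were 252, 247, 275 and 295 in PBS animals and 377, 459, 405 and 382 in LPS animals. The groups were apart in both fractions, and animals 270 and 271 were highest in Positive LPS. The log2 increases were 0.61 ± 0.13 (adjusted p = 0.00126) and 0.60 ± 0.14 (adjusted p = 0.00611), with a difference of 0.01 ± 0.19 (adjusted p = 0.987).

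Pmaip1, which encodes NOXA (chr18:66458604-66465558, plus strand), varied most among LPS animals. Its positive fraction values were 234, 207, 215 and 206 normalised counts in PBS animals and 176, 255, 499, 529 and 276 in LPS animals. In input it had 109, 112, 123 and 125 in PBS animals and 189.7, 156, 375 and 164 in LPS animals. Animals 270 and 271 stood well above the other LPS animals, and animal 266 was below all PBS animals in the positive fraction, so those groups overlapped, whereas in input they did not. The log2 differences, 0.69 ± 0.29 (adjusted p = 0.0650) and 0.92 ± 0.31 (adjusted p = 0.0575), missed the threshold. In the positive fraction the gene was called with DESeq2 (0.69, adjusted p = 0.0384) and without the positive library of animal 266 (0.86, adjusted p = 0.0157), the positive library of animal 267 (0.79, adjusted p = 0.0463) or the input library of animal 270 (0.69, adjusted p = 0.0309). In input it was called in 9 of 30 alternatives, among them DESeq2 (0.92, adjusted p = 0.0202) and the omission of the positive library of animal 266, 270 or 271 (0.92 each) or of the input library of animal 267 (1.05) or 507 (1.04).

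Bcl2l11, which encodes BIM (chr2:128126038-128162547, plus strand), had opposite signs in the 2 fractions. Values in the positive fraction were 467, 344, 377 and 333 normalised counts in PBS animals and 273, 355, 472, 310.4 and 244 in LPS animals, which overlapped widely. In input it had 207, 172, 218 and 213 in PBS animals and 277, 274, 333 and 227 in LPS animals, and there the LPS animals were all higher. Neither log2 difference passed the test (-0.20 ± 0.17, adjusted p = 0.368 in the positive fraction, and 0.46 ± 0.18, adjusted p = 0.108 in input). The difference between them was -0.66 ± 0.25 (adjusted p = 0.138). With the animal as a block it was called at the same size (-0.66, adjusted p = 0.0198), and without the positive library of animal 270, the highest LPS library, it was -0.82 (adjusted p = 0.0230).

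Bid, which encodes the BH3-only link from death receptors to mitochondria (chr6:120893119-120916820, minus strand, with Gm17812 overlapping it on the other strand), changed little in the positive fraction. Its values there were 513, 580.3, 517 and 537 normalised counts in PBS animals and 439, 531, 731, 537 and 547 in LPS animals. In input they were 245, 232, 238 and 239.6 in PBS animals and 292, 308, 325 and 291 in LPS animals. The positive fractions overlapped and the inputs were apart by a small step. The log2 differences were 0.05 ± 0.11 (adjusted p = 0.732) and 0.35 ± 0.12 (adjusted p = 0.0694). The first turned to -0.06 without the positive library of animal 270, the highest, and the second was called without the positive library of animal 266 (0.35, adjusted p = 0.0407) or 270 (0.35, adjusted p = 0.0198).

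The second question was which of these transcripts were higher in the positive fraction than in input. In PBS animals, 6 of the 10 genes were higher in the positive fraction than in input (39.8% of all genes were called, 21.0% upwards and 18.8% downwards), with a median log2 difference of 0.87 and no overlap for 7 of the 10, against 45.7% of all genes. These were Bcl2a1b (3.90 ± 0.28), Bcl2a1d (3.88 ± 0.33), Bid (1.17 ± 0.12), Bcl2l11 (0.91 ± 0.18), Pmaip1 (0.88 ± 0.31) and Mcl1 (0.87 ± 0.08). In the same comparison the microglial markers had a median of 4.22 and the endothelial markers one of 1.45. The Pmaip1 value was the least secure (adjusted p = 0.0288), and its call was lost without the input library of animal 268 (0.84) or 272 (0.86) or the positive library of animal 268 (0.84) or 273 (0.88). Bcl2l1 was below the fold cut (0.24 ± 0.09, adjusted p = 0.0490), and Bcl2 (-0.17 ± 0.12), Bax (0.14 ± 0.11) and Bbc3 (0.14 ± 0.14) were not called.

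In LPS animals the set of called genes was different in part. There 5 of the 10 genes were higher in the positive fraction and 1 was lower, while 53.4% of all genes were called (27.6% upwards, 25.8% downwards), and the 2 fractions did not overlap for 5 of the 10, against 45.3% of all genes. Bcl2a1d (4.38 ± 0.26), Bcl2a1b (4.21 ± 0.24), Mcl1 (1.22 ± 0.08), Bax (1.12 ± 0.11) and Bid (0.88 ± 0.12) were higher, and Bcl2 was lower (-0.42 ± 0.12, adjusted p = 0.00484). Bcl2l11 stood at 0.25 ± 0.17 (adjusted p = 0.214), Bcl2l1 at 0.28 ± 0.09 (adjusted p = 0.0123) and Bbc3 at 0.15 ± 0.13 (adjusted p = 0.332). Bcl2l1 passed the fold without the positive library of animal 266 (0.33) or the input library of animal 270 (0.36). Pmaip1 stood at 0.65 ± 0.29 (adjusted p = 0.0583). It was called with the animal as a block (0.45, adjusted p = 0.0116), with DESeq2 (0.65, adjusted p = 0.0373), and without the positive library of animal 266 (0.82), 267 (0.74) or 507 (0.73) or the input library of animal 270 (1.03). A change of call is not a test of change between treatments. That contrast equals the difference of the LPS effects between fractions, which the main edgeR fit called for Bax. It was not called for Bcl2l11 (-0.66 ± 0.25, adjusted p = 0.138), Pmaip1 (-0.22 ± 0.42, adjusted p = 0.832) or Bcl2 (-0.25 ± 0.17, adjusted p = 0.459). These comparisons between fractions depended on the scale: with library totals alone the median of all genes moved from -0.00 to -0.12 in PBS animals and from -0.03 to -0.20 in LPS animals, and the share of calls that were upward went from 52.8% to 38.1% and from 51.7% to 35.3%.

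The positive fraction was also compared with input within single animals. The ratio of the positive fraction to input for Bax was 1.06, 0.935, 1.15 and 1.27 in the PBS animals and 2.63, 2.10, 1.56 and 2.34 in LPS animals 266, 267, 270 and 507, without overlap. For Bcl2l11 it was 2.26, 2.00, 1.73 and 1.56 in PBS animals and 0.986, 1.29, 1.41 and 1.07 in LPS animals, also without overlap but downwards. For Bcl2a1b it was 16.9, 7.64, 15.8 and 28.3 in PBS animals and 14.2, 14.8, 30.8 and 16.2 in LPS animals, fully overlapping. The ratios of Mcl1 ran from 1.63 to 2.03 and from 2.02 to 2.45, meeting at their ends, and those of Bcl2 from 0.838 to 0.951 and from 0.690 to 0.872.

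**Figure D3:**
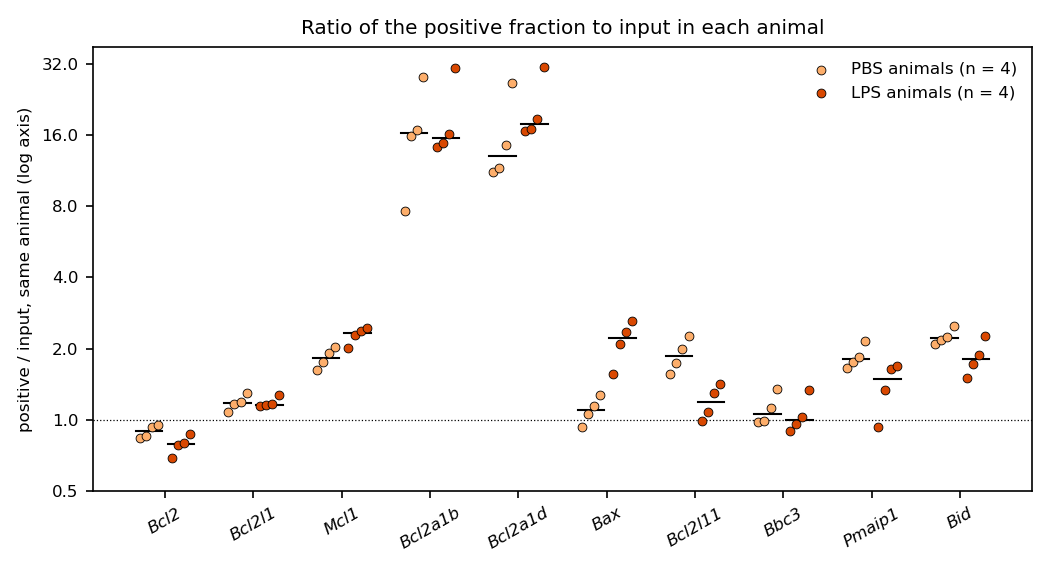
Ratio of the normalised count in the positive fraction to that in input of the same animal (log axis), with 4 PBS and 4 LPS animals per gene, a bar at each median, and a dotted line at a ratio of 1. The Bax ratios of LPS animals (1.56 to 2.63) lie above those of PBS animals (0.935 to 1.27), and those of Bcl2l11 lie below.

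The balance between members within each library was less sensitive to scaling, since both counts share a size factor. In the positive fraction, the count of Bax over that of Bcl2 ranged from 1.14 to 1.45 in PBS animals and from 2.80 to 4.30 in LPS animals. In input it ranged from 0.883 to 1.21 and from 0.940 to 1.45, so only the positive fraction separated the treatments for this ratio. There Bax was higher and Bcl2 lower in every LPS library than in every PBS library. The ratio therefore had to separate and is not a result apart from those of the genes. Bax over Mcl1 gave another picture. In the positive fraction it ranged from 0.195 to 0.250 in PBS animals and from 0.174 to 0.323 in LPS animals, which overlapped, and in input it went from 0.352 to 0.381 down to 0.248 to 0.261. Mcl1 over Bcl2 ranged from 5.53 to 6.22 in Positive PBS and from 10.9 to 18.2 in Positive LPS, and Mcl1 over Bcl2l1 from 1.03 to 1.17 and from 1.39 to 1.63. Mcl1 over Bcl2 too had to separate in the positive fraction, since Mcl1 was higher and Bcl2 lower in every LPS library there. Mcl1 over Bcl2 was also apart in input, at 2.51 to 3.17 in PBS animals and 3.79 to 5.74 in LPS animals. Mcl1 over Bcl2l1 overlapped there (0.686 to 0.745 and 0.702 to 0.836). Bbc3 over Mcl1 overlapped between treatments in the positive fraction (0.0536 to 0.0642 and 0.0431 to 0.0612). These are ratios of read counts and not of proteins or of molecules, because the genes differ in length.

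The other genes of the cell death pathway were counted from 4 lists with 52 genes. Of 16 further BCL2 family genes, 12 were tested, and 3 rose and 1 fell with LPS in the positive fraction (19.0% and 14.9% of all genes), with 3 raised in input (7.16% of all genes) and 0 lowered there by edgeR or DESeq2 (1, Hrk, at an unadjusted p under 0.05). Bcl2a1a rose by 3.15 ± 0.23 (adjusted p = 8.36e-09) in the positive fraction and 2.29 ± 0.34 (adjusted p = 0.000133) in input, and Bcl2l12 by 0.79 ± 0.22 (adjusted p = 0.00943) in the positive fraction. Hrk, a BH3-only gene of neurons, fell by 0.37 ± 0.09 (adjusted p = 0.00253) there, although its fold passed no longer without the positive library of animal 273 (-0.30). The neuron markers that fell in the same comparison (3 of 5, median -0.40) stand beside this value too, and their part in it was not tested. Of the genes not tested, Bik reached 20.4 normalised counts at most and Bcl2l10 2.61.

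Of the 14 apoptosome and caspase genes, 3 rose in the positive fraction and 1 rose in input, shares near those of all genes (19.0% and 7.16%), with 0 lowered in the positive fraction by edgeR, by DESeq2 or at an unadjusted p under 0.05. Apaf1, the scaffold of the apoptosome, rose by 0.57 ± 0.14 (adjusted p = 0.00280) in the positive fraction and 0.55 ± 0.14 (adjusted p = 0.0144) in input, where the call was lost without the input library of animal 266 (0.46) or 273 (0.47). Diablo, an antagonist of the inhibitors of apoptosis, rose by 0.43 ± 0.11 (adjusted p = 0.00526) in the positive fraction, and its value in input was 0.05 ± 0.12 (adjusted p = 0.834).

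The list with the most calls was that of the death receptor and inhibitor of apoptosis genes, of which 7 of 10 rose in the positive fraction (19.0% of all genes) and 4 of 10 in input (7.16%), with medians of 0.68 and 0.31. By edgeR, by DESeq2 and at an unadjusted p under 0.05, 0 of them were lower in either fraction. Birc3, which encodes the inhibitor cIAP2 and is a known NF-kB target, rose by 2.03 ± 0.13 (adjusted p = 2.40e-09) in the positive fraction, from 304 ± 15.6 to 1243 ± 150 normalised counts, and by 1.73 ± 0.14 (adjusted p = 2.38e-07) in input. Naip2 and Naip6, of a gene family of near-copies whose reads may also be shared, rose by 1.48 ± 0.17 (adjusted p = 1.84e-06) and 1.15 ± 0.21 (adjusted p = 0.000231) in the positive fraction. The death receptor gene Fas rose by 0.99 ± 0.17 (adjusted p = 0.000155) in the positive fraction and 1.13 ± 0.18 (adjusted p = 0.000256) in input.

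Of 12 genes of p53 and its targets, 11 were tested, and 4 rose and 1 fell in the positive fraction (19.0% and 14.9% of all genes) while 2 rose in input (7.16%). Cdkn1a, the cell cycle inhibitor p21, rose by 1.62 ± 0.25 (adjusted p = 5.88e-05) and by 1.82 ± 0.26 (adjusted p = 9.86e-05). Aen (0.47 ± 0.09, adjusted p = 0.000505) and Mdm2 (0.41 ± 0.07, adjusted p = 7.53e-05) rose in the positive fraction. Trp53 itself was at 0.43 ± 0.16 (adjusted p = 0.0371) there, and this call was lost in 13 of 30 alternatives. They included limma without a block (0.38, adjusted p = 0.0630) and with the animal as a block (0.37, adjusted p = 0.0809) and the omission of the positive library of LPS animal 266 (0.37), 267 (0.34) or 507 (0.37) or of PBS animal 268 (0.41), 272 (0.47), 273 (0.45) or 506 (0.40). Zmat3 fell by 0.33 ± 0.08 (adjusted p = 0.00189), a fold of 1.26 that dropped under the cut without the positive library of animal 266 (-0.29), 270 (-0.30), 271 (-0.31), 272 (-0.32) or 273 (-0.30).

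**Figure D4:**
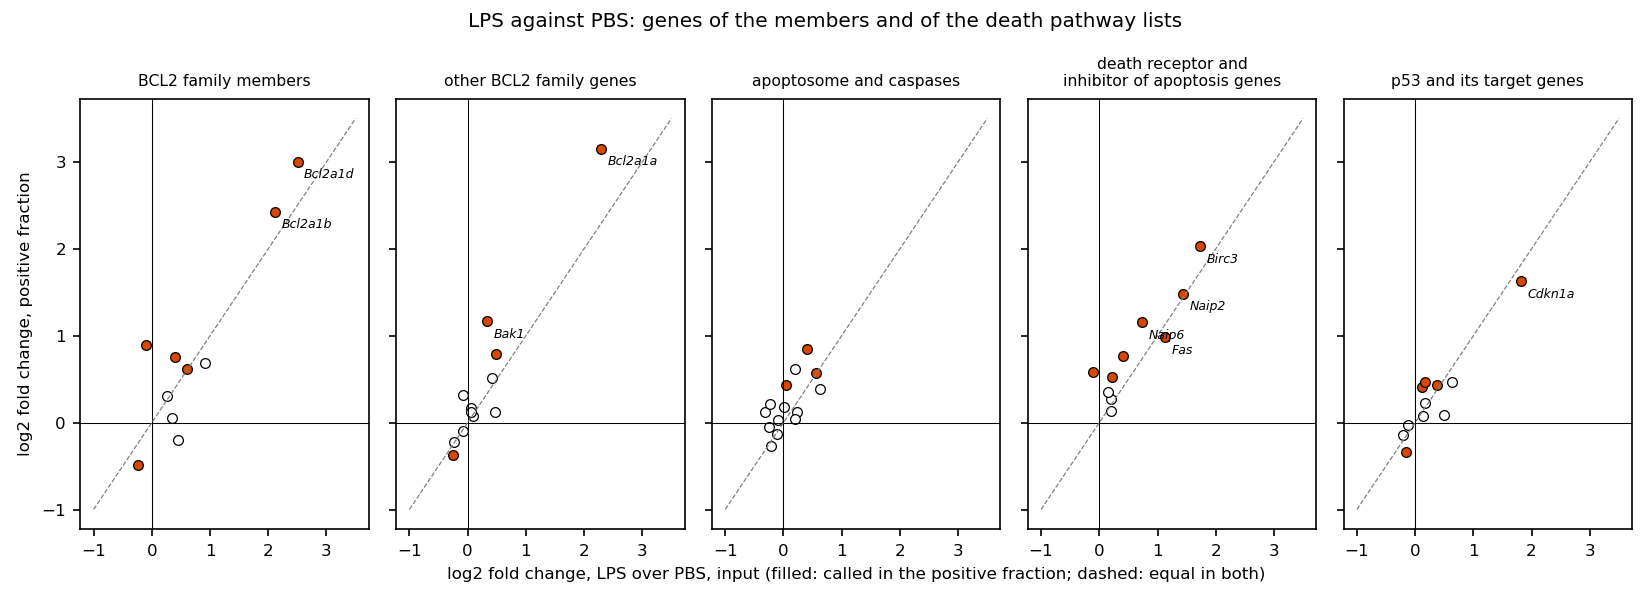
Log2 fold change of LPS over PBS in input (x axis) and in the positive fraction (y axis) for the 10 genes and the tested genes of the 4 pathway lists, 1 panel each. Filled points were called in the positive fraction, the dashed line marks equal changes, and names are given beyond 0.95 in the positive fraction. Bcl2a1a, Bcl2a1b, Bcl2a1d and Birc3 lie farthest up, at 2.03 to 3.15.

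Across the 17 libraries, the tested gene whose centred log2 profile lay closest to each member was looked up, with the distance given as the root-mean-square difference on the log2 scale. Bcl2a1d was closest to Bcl2a1a (0.37, while its own profile had a root-mean-square size of 2.55), and the profiles near Bcl2a1b included Cst7 (0.35 of 2.41) and Cd14 (0.35), the LPS co-receptor. Candidates needed a mean of at least 100 normalised counts. The members themselves were left out as candidates, so Bcl2a1b could not be named for Bcl2a1d whatever its distance. Of the 50-base windows of Bcl2a1d, 64.0% also occur in Bcl2a1a, so these rows may share reads. Mcl1 was closest to Rnh1 (0.11 of 0.63) and Bax to Sec61a1 (0.12 of 0.48), the channel subunit of the endoplasmic reticulum, followed by the ribosomal protein genes Rpl39 (0.12) and Rps25 (0.13). Bcl2 was closest to Snx25 (0.08 of 0.30), Bcl2l1 to Trappc3 (0.07 of 0.23) and Bid to Clip3 (0.11 of 0.54). The distances were larger relative to the profile for Bcl2l11 (Ebf3, 0.19 of 0.40), Bbc3 (Ehhadh, 0.17 of 0.35) and Pmaip1 (Zfp628, 0.24 of 0.66). The 17 libraries are not independent, since 8 animals gave 2 each.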

How the data were processed

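The deposited table holds, for 36172 gene rows, estimated counts and log2 values of 18 libraries; both were made by the authors, who aligned trimmed reads with regard to strand to mm10 against RefSeq gene models in Strand NGS and scaled the log2 values with the DESeq algorithm. Of the nonzero estimated counts that were deposited, 81.1% were not whole, so they were rounded here. The sample labels gave the fraction, treatment and animal of each library. Size factors (median of ratios over 15766 genes), 1 mean per group and edgeR 4.0.16 quasi-likelihood tests (R 4.3.3, 13 residual degrees of freedom) were fitted to the 17 libraries together, with Benjamini-Hochberg adjustment over the 14803 genes that had more than 20 normalised counts in every library of at least 1 group. A gene was called at an adjusted p under 0.05 and a fold over 1.25. SE is that of the log2 difference, derived from the F statistic.

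The authors' deposited log2 values were used only in an alternative. Alternatives were DESeq2 1.42.0, limma 3.58.1, other scalings and filters, each library left out in turn, fewer libraries, sex as a term and the animal as a block (a fixed term in edgeR, but a random effect in limma for LPS against PBS). Both fractions of an animal come from 1 brain, and their deviations from the group means correlated at 0.153 to 0.585 in the 8 animals with both, so the animals pair the fractions. The 10 genes, the pathway and marker lists and the rules were chosen with earlier results of these data known. The rule for names took all 10 genes and, per pathway list, at most 4 raised and 4 lowered called genes with the largest fold in LPS against PBS of the positive fraction. The scripts were tested on simulated data. Total counts per library set a precision for counting error only. P-values measure the spread between libraries of this 1 experiment, and the main fit takes the fractions of an animal as independent. The sequence of Pmaip1 and some results that the rule would name are not reported here.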

Additional observations from a re-analysis of the deposited data

Results flagged for a closer look

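A library was set apart within its group where its gap to the nearest other library, divided by the range of the group, passed the critical value of Dixon's test, in 40 groups of the 10 genes, where chance alone gives about 1 in 20. In Positive LPS, Bcl2a1b was high in animal 271, at 2397 normalised counts against 1822 in the next animal. In Positive LPS, Bax was low in animal 270, at 1528 against 2111 in the next. In Input LPS, Pmaip1 was high in animal 270, at 375 against 189.7.

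The LPS effect differed between fractions for Bax, by 0.98 on the log2 scale (SE 0.15, edgeR adjusted p = 0.000717), and for Bak1, by 0.84 (SE 0.13, adjusted p = 0.000606). Both effects were larger in the positive fraction, and all 5 LPS animals lay above all 4 PBS animals there for Bax. The difference was not confined to these genes. In the pathway lists it was also called for Cycs (0.44, SE 0.11, edgeR adjusted p = 0.0147) and Bnip3l (0.39, SE 0.11, adjusted p = 0.0394).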

How the results depend on the processing

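For the 10 genes in the 5 comparisons, 1424 of 1490 recomputed values kept their sign and call, 43 passed a threshold missed before, 5 lost a call and 18 changed sign, and 36 of 50 results did not change under any alternative run. Bbc3 in LPS animals, positive against input, was -0.031 with library totals alone. The contrast of the 2 LPS effects (positive minus input) was -0.016 for Bcl2l1 with library totals alone, and for Bbc3 it was -0.055 with library totals alone, -0.0041 with limma, -0.016 when animals 506 and 507 were left out and -0.082 with the replicate block. With 1 library left out in turn, that contrast ran from -0.066 to 0.085 for Bbc3, from -0.00046 to 0.12 for Bcl2l1 and from -0.42 to 0.15 for Pmaip1. The LPS effect ran from -0.060 to 0.13 for Bid in the positive fraction and from -0.031 to 0.12 for Diablo in input. With animals 506 and 507 left out, 673 genes were raised and 410 lowered in input instead of 1060 and 779, and the contrast of effects was called for 264 upwards and 59 downwards instead of 808 and 210; the smaller number of animals is part of that setting. The replicate block gave calls of that contrast for 1318 and 597 genes. Among the 10 genes, the block changed the calls of Bcl2l11 (difference) and Pmaip1 (positive against input, LPS animals) and no other, and among the other named genes the calls of Trp53 (positive fraction) and Naip6 (input) were lost with it. For LPS against PBS the block was fitted in limma, which without a block also lost the call of Trp53. All 18 libraries and the deposited log2 values were alternatives chosen after seeing the data. The A1 rows had under 40 counts in Input PBS, which limits their precision there.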
